A study of Mus musculus with 5 samples.

Results

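Immediate-early genes were followed across the cell types of the mouse kidney. These genes were Fos, Fosb, Jun, Junb, Jund and Atf3 of AP-1, with Egr1, Klf6, Nr4a1 and Ier2 beside them. They were chosen by symbol, and each of the 10 symbols matched 1 of the 32285 genes counted. The kidneys came from wild-type males of the C57BL/6 strain, whose age was 8 to 10 weeks. AKI stood for mice injected with aristolochic acid I (AAI, a plant toxin that injures the proximal tubule) at 3 mg/kg every 3 days over 2 weeks, CKD for mice left a further 2 weeks after the same injections, and control for mice given vehicle. There were 1 control library, 2 AKI libraries (AKI 1 and AKI 2) and 2 CKD libraries (CKD 1 and CKD 2). The labels do not say whether the 2 libraries of a group came from separate mice, so p-values measure the spread between these libraries, which may be technical.

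AP-1 is a dimer of basic leucine zipper proteins, in which a Jun protein pairs with a Fos, Atf or other Jun protein and binds short DNA elements in front of target genes. Most of these genes are low in resting cells and are transcribed within minutes of a growth factor, cytokine or stress signal through MAP kinases, without new protein synthesis. In kidney they are known to be induced in injured tubules and in activated immune cells. They are also known to be switched on while tissue is digested to single cells, and the labels describe such a warm enzyme step for all groups. Whether libraries of a group were digested together is not given in the sources used here, so the digestion and the group cannot be told apart in these libraries.

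RefSeq promoter entries on GRCm38.p6 were found for 8 of the 10 genes, and Egr1 and Ier2 had none in the table used. The 250 bases before the start site are shown for 4 genes of the Fos and Jun proteins that form AP-1, all lower in CKD in macrophage-like cells. The window of Jund, a further Jun gene also lower there, is not shown and held none of the motifs searched. Capitals mark TGACG on either strand, the core of the cyclic AMP response element to which dimers with Atf proteins bind, and positions are those of GRCm38.p6.
Fos (chr12:85473640-85473889, plus strand): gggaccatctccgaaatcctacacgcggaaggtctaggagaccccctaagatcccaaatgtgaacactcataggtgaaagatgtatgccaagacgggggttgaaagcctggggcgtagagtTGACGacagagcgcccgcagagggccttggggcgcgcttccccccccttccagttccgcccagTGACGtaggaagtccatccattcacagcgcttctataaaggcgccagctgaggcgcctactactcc
Fosb (chr7:19310046-19310295, minus strand): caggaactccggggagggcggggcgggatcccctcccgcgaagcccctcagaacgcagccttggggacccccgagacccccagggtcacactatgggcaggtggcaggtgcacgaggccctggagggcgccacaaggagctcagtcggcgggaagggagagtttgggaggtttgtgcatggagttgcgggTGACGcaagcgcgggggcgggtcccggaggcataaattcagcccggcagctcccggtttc
Jun (chr4:95052223-95052472, minus strand): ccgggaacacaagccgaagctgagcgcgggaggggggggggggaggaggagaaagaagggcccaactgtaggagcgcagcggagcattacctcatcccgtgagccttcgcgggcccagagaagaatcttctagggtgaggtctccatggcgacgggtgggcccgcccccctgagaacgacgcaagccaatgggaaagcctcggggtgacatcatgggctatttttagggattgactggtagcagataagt
Junb (chr8:84978749-84978998, minus strand): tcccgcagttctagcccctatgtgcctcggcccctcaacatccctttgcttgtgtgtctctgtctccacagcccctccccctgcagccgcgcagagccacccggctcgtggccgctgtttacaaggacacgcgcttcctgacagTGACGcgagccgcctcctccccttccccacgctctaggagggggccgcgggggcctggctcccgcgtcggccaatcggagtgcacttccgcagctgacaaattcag

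TGACG was found in 5 of the 8 windows (Fos, Fosb, Junb, Atf3 and Nr4a1), and 17.8% of the 32851 promoters of the table held it in the same 250 bases. The full element TGACGTCA was in 0 of the 8 and in 1.55% of all promoters. TGANTCA, a pattern that takes in the AP-1 site, was in 0 of the 8 and in 6.75%, and the CArG box of serum response factor in 0 of the 8 and in 1.47%. Only exact matches were counted, so near matches such as tgacatca in the window of Jun were not. GGGCGG, the box bound by Sp1, was in 6 of the 8 and in 32.7% of all. These counts describe the letters in a short window and no binding was measured.

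The 5 libraries held 72896 barcodes, with 90028670 to 121316769 UMIs (single captured RNA molecules) per library, and 53718 cells were kept. The kept cells formed 38 clusters, of which the named ones made 15 cell classes with 47984 cells, named "-like" after marker genes. A further 3 clusters were tested under their leading genes (Ctsk, Fn1 and Il17a). They belonged to no class, so results for the macrophage-like class leave out the Ctsk-led and Fn1-led clusters. The control stood apart in quality, with 38.7% of its barcodes over 30% mitochondrial UMIs against 11.1 to 12.7% in the other libraries. It shared 117 barcodes with CKD 2, and for 88 of them the CKD 2 cell held over 20 times the UMIs; all other pairs of libraries shared 16 to 50. Removing those control cells multiplied the control's levels in the 15 classes by 0.989 to 1.04. CKD 1 had the lowest mean number of UMIs per cell of the AKI and CKD libraries in 14 of the 15 classes, and the highest mitochondrial share in 14. Levels below are UMIs of a gene per 10000 UMIs of a class in a library, each from at least 15 UMIs in the named classes, and 95% counting intervals leave out differences between mice.

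Most of the 10 genes were lower in CKD than in AKI in macrophage-like and T lymphocyte-like cells, and none of them passed the test in any of the other 13 classes. Over the 150 pairs of gene and class the fitted change was negative in 133. The median change of all genes was -0.023 to 0.036 over the classes, and their share of negative changes was not counted. Among the 150 pairs, 16 passed an adjusted p of 0.05 (edgeR, quasi-likelihood test), all of them lower in CKD. Of these, 9 were in macrophage-like and 7 in T lymphocyte-like cells. Background shares of all tested genes called lower were 2.72% in macrophage-like and 2.6% in T lymphocyte-like cells. In the other 13 classes the share of all genes called lower was 0.0628% in B lymphocyte-like, 0.01% in DC-like, 0.177% in DCT-like, 0.0831% in NK-like, 0.0272% in PC-like, 0.155% in PT-like, 0.00907% in TAL-like, 0.00946% in thin limb-like and 0.0% in EC-like, IC-like, fibroblast/pericyte-like, neutrophil-like and urothelial-like cells. There edgeR called 0 of 130 pairs, and 35 had an unadjusted p under 0.05, all lower in CKD. Of all genes, 1.61% (EC-like) to 6.35% (PT-like) were lower at that p in these classes. DESeq2 called 5 pairs, 4 in PT-like and 1 in urothelial-like cells, where it called 0.872 and 0.244% of all genes lower. The calls in macrophage-like and T lymphocyte-like cells were mostly lost when an AKI library was left out: without AKI 1, 2 genes were called in macrophage-like cells and 0 in T lymphocyte-like cells, and without AKI 2, 3 and 0, while the calls rose to 10 in both classes without either CKD library. In those fits 8.46% (without CKD 1) and 17.2% (without CKD 2) of all genes were called lower in macrophage-like cells and 15.2 and 11.6% in T lymphocyte-like cells.

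**Figure D1:**
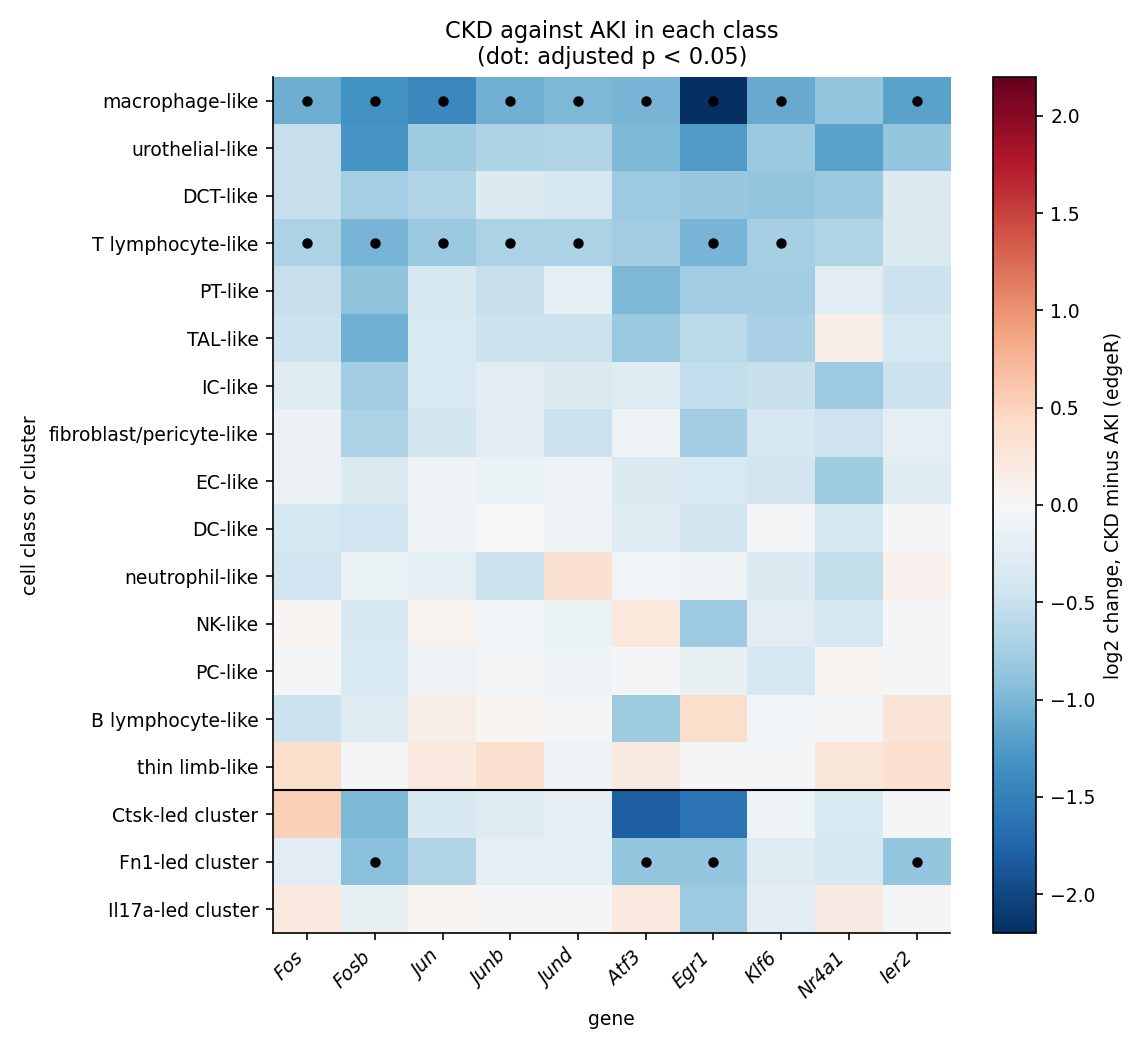
Heat map of the log2 change (CKD minus AKI, edgeR) of the 10 genes (columns) in 15 cell classes and, below the line, 3 clusters named by leading gene (rows); a dot marks an adjusted p under 0.05. The dots sit in the macrophage-like row (9), the T lymphocyte-like row (7) and the Fn1-led row (4), and the darkest call is Egr1 in macrophage-like cells at -2.19.

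In macrophage-like cells Egr1, a zinc finger factor of the early growth response, was measured at 18 and 15.1 UMIs per 10000 in AKI 1 and AKI 2, and at 3.85 and 4.38 in CKD 1 and CKD 2. The control stood at 11.8, between the groups. The 2 CKD values lay below both AKI values and their intervals (3.67 to 4.04 and 4.17 to 4.61) were far from them. The log2 change was -2.19 ± 0.161 (SE, 2 against 2 libraries; edgeR, adjusted p = 0.00562), a level 4.56-fold lower in CKD.

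Jun, the subunit after which the family is named, fell from 49.5 and 57.4 UMIs per 10000 in AKI to 18.1 and 27.4 in CKD in the same cells, with the control at 63.9. Its change was -1.41 ± 0.216 (log2, edgeR adjusted p = 0.0234), and the control was higher than all 4 other libraries. Fos, its usual partner, fell from 52.5 and 54.7 to 24.2 and 33.5, with the control at 56.4. The groups did not overlap, and the change of Fos was -1.08 ± 0.178 (log2, adjusted p = 0.0266 in edgeR). Fosb, a second Fos protein, fell from 17.6 and 16.3 to 5.89 and 9.29, a log2 change of -1.34 ± 0.232 (edgeR adjusted p = 0.0307). The control level of Fosb, 14.1, lay between the AKI and CKD libraries.

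Junb and Jund, the other Jun proteins of the dimer, moved alike between AKI and CKD but not against the control. Junb was at 28.6 and 30.3 UMIs per 10000 in AKI and at 14.8 and 17.3 in CKD (log2 change -1.06, edgeR adjusted p = 0.0146). The control, at 16.6, lay within the CKD range of Junb. Jund was at 24.2 and 24.5 in AKI and at 13.5 and 14.5 in CKD (log2 change -0.98, edgeR adjusted p = 0.0127), and the control, at 32.0, lay above both groups.

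Atf3, a stress-induced partner of Jun proteins, fell from 30.6 and 27.4 UMIs per 10000 to 15.4 and 16.8 in macrophage-like cells (log2 change -1.03, edgeR adjusted p = 0.0147). Klf6, a Krüppel-like factor, fell from 24.5 and 27.5 to 11.3 and 16.0 (log2 change -1.11, edgeR adjusted p = 0.0303). Ier2, a nuclear early response protein, fell from 5.91 and 6.49 to 3.06 and 3.15 (log2 change -1.18, edgeR adjusted p = 0.00957). Nr4a1, an orphan nuclear receptor induced by T cell receptor and stress signals, did not pass: it was at 2.56 and 2.85 in AKI and at 1.27 and 2.09 in CKD, with an adjusted p of 0.0923 (edgeR). The control value of Nr4a1, 0.847, was the lowest of the 5 libraries.

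For all 10 genes both CKD libraries lay below both AKI libraries in macrophage-like cells, an arrangement that 17.6% of the 11002 genes tested there showed. The median change of the 10 genes was -1.1 on the log2 scale beside 0.010 over all genes. With 2 libraries against 2 an exact two-sided permutation test of a single value cannot go below 0.333. The macrophage-like cells numbered 679 and 916 in AKI and 1153 and 378 in CKD, with a mean of 8590, 8020, 3780 and 9090 UMIs per cell in AKI 1, AKI 2, CKD 1 and CKD 2. Without the shallow CKD 1 library all 10 genes were called lower in the class, at a median of -0.93.

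Marker lists moved in the same cells. The summed level of the 8 macrophage markers was 157 and 160 UMIs per 10000 in AKI and 100 and 126 in CKD, with 7 of the 8 lower in both CKD libraries and none at 0. The 10 T lymphocyte markers summed to 1.12 and 0.98 in AKI and to 5.87 and 1.77 in CKD, with 7 of the 10 higher in both CKD libraries and none of them at 0. The 6 markers of the thick ascending limb summed to 1.39, 1.17, 5.91 and 0.891 in AKI 1, AKI 2, CKD 1 and CKD 2. Their part in the result was not tested.

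The macrophage-like class held a large cluster led by Ccl8, Ccl12 and Ccl7, with 68.5 to 92.0% of the cells of the class in the AKI and CKD libraries, and a smaller one led by Nlrp1b. In the Ccl8-led cluster all 10 genes were lower in both CKD libraries than in both AKI libraries, and in the Nlrp1b-led cluster 9, all but Nr4a1. The same held for 17.8 and 17.9% of the genes with a mean of at least 10 UMIs per library in these clusters. Egr1 was at 15.7 and 21.0 UMIs per 10000 in the AKI cells of the Nlrp1b-led cluster and at 7.83 and 6.91 in its CKD cells. In the Ccl8-led cluster the values were 18.1 and 14.6 in AKI and 3.69 and 4.14 in CKD.

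The share of macrophage-like cells with a UMI gave the same order after each cell was thinned to 1000 UMIs. Egr1 was then found in 66.6% (95% exact binomial interval 62.8 to 70.3) and 64.5% (61.3 to 67.7) of the cells in AKI, and in 23.1% (20.7 to 25.6) and 32.5% (27.6 to 37.7) in CKD. Unthinned, the shares were 87.6, 86.7, 43.5 and 61.1%, at a median of 8716, 7706, 2280 and 6522.5 UMIs per cell. In NK-like cells, where Egr1 was low, the thinned shares were 13.2, 19.3, 10.2 and 11.5%, and each was below the thinned share of macrophage-like cells in the same library. The median depth of NK-like cells before thinning was 3702, 3753, 3129.5 and 4520 UMIs, higher than that of macrophage-like cells in CKD 1 and lower in the other 3. Thinning left out 53, 36, 0 and 27 of the macrophage-like cells. Averaged over the 10 genes the thinned share in CKD minus that in AKI was -18.7 percentage points, and the SD within the groups, pooled, was 4.26 points.

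**Figure D2:**
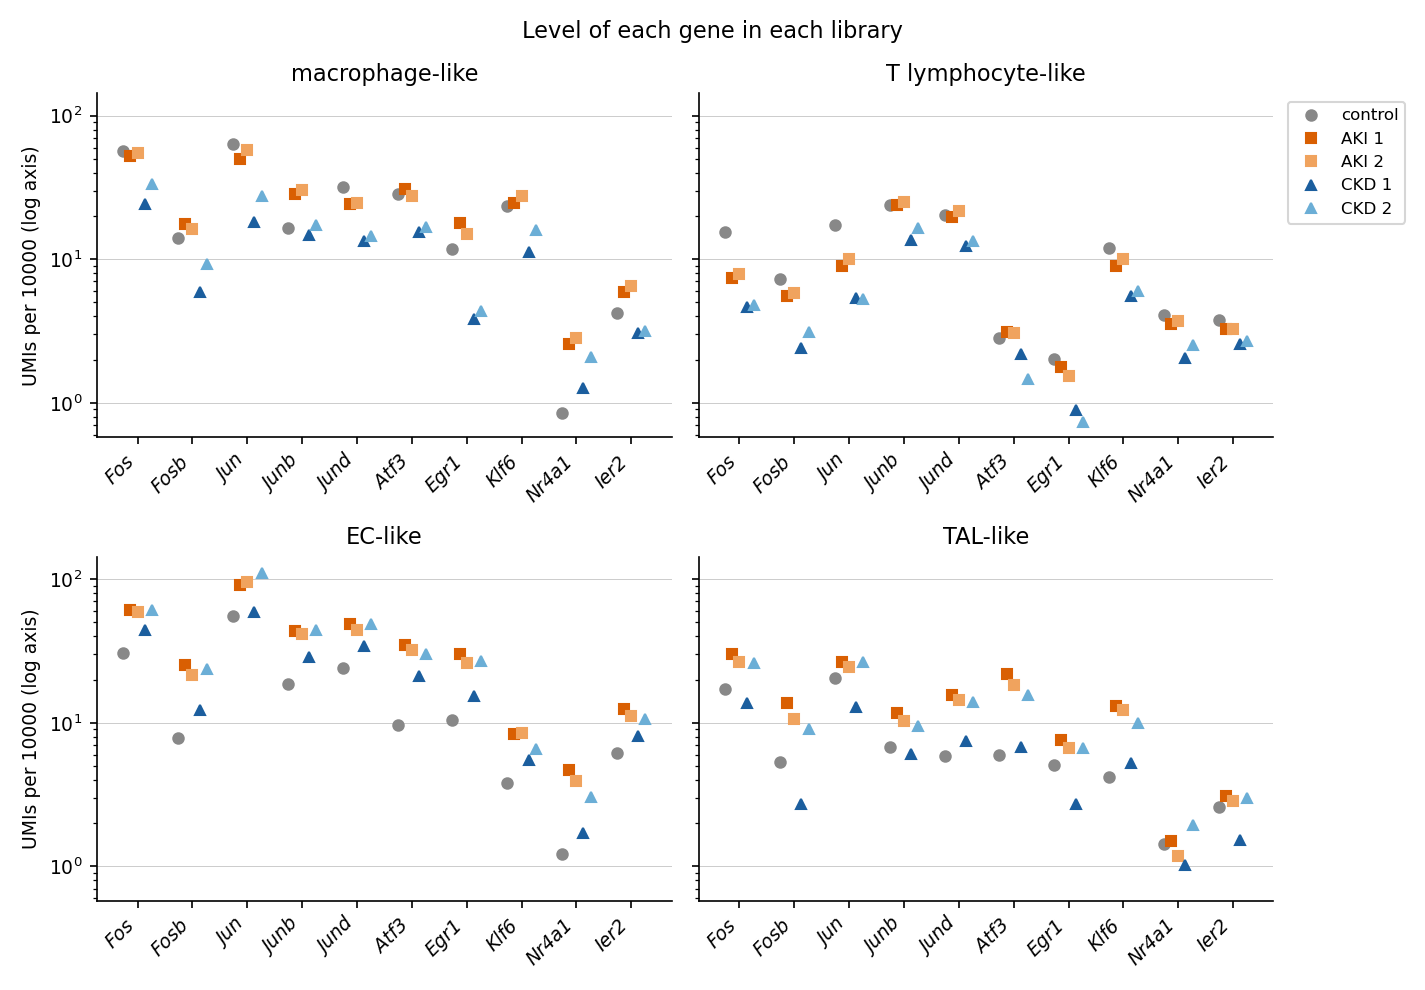
Level of each of the 10 genes (horizontal axis) in UMIs per 10000 on a log axis, in macrophage-like, T lymphocyte-like, EC-like and TAL-like cells, with 1 point per library. In the upper panels both CKD points lie under both AKI points for every gene. In the lower panels CKD 1 lies under both AKI points for all 10 genes, and CKD 2 for 4 genes in EC-like and 6 in TAL-like cells. Both CKD libraries were lower for 17.6, 27.9, 23.8 and 23.7% of all genes in these classes, in the order named.

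T lymphocyte-like cells were the largest class. Jun was at 9 and 10.0 UMIs per 10000 in AKI and at 5.41 and 5.32 in CKD, with the control at 17.2. The change was -0.82 ± 0.0850 (log2, 2 against 2 libraries; edgeR, adjusted p = 0.0153). Egr1 was at 1.78 and 1.55 in AKI and at 0.891 and 0.738 in CKD (log2 change -1.03, edgeR adjusted p = 0.0162). Fosb fell from 5.54 and 5.78 to 2.40 and 3.11, also -1.03 on the log2 scale (edgeR adjusted p = 0.0266). Every one of the 10 genes was lower in both CKD libraries than in both AKI libraries, as were 27.9% of all genes tested in the class.

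Fos, Junb, Jund and Klf6 also passed in T lymphocyte-like cells, with log2 changes of -0.69, -0.69, -0.69 and -0.73. Fos was at 7.46 and 7.93 UMIs per 10000 in AKI, 4.67 and 4.82 in CKD and 15.5 in the control, so that the control was the highest of the 5 libraries. Junb was at 23.7 and 25 in AKI and at 13.6 and 16.6 in CKD, and the control, at 24.0, lay between the AKI libraries. The 3 genes that missed the threshold were Nr4a1 (-0.66, edgeR adjusted p = 0.0501), Atf3 (-0.77, adjusted p = 0.0518) and Ier2 (-0.32, adjusted p = 0.0741). The median over the 10 genes was -0.71 beside -0.023 over all genes.

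The calls in T lymphocyte-like cells depended on 2 clusters led by cell cycle genes. The larger, led by histone genes, made up 3.47 and 3.03% of the class in AKI and 21.7 and 13.8% in CKD, and its levels were low in all 4 libraries (Jun 4 and 4.92 in AKI, 3.16 and 2.93 in CKD). Without these clusters 0 of the 10 genes and 0 of 13531 genes passed in edgeR, with 9 of the 10 and 2226 of all genes at an unadjusted p under 0.05. The log2 changes were then -0.63 for Jun (edgeR adjusted p = 0.0882), -0.88 for Egr1 (0.0769), -0.89 for Fosb (0.0986) and -0.50 for Fos (0.11).

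Within the 9 remaining T lymphocyte-like clusters, the CKD values still lay under the AKI values for most genes. Of the 90 pairs of gene and cluster, both CKD libraries were below both AKI libraries in 84 and above both in 0. Of all pairs of gene and cluster with a mean of at least 10 UMIs per library, 19.5% had both CKD libraries below. Fosb, Jun, Jund, Atf3, Egr1 and Klf6 were lower in all 9 clusters, Junb and Nr4a1 in 8, and Fos and Ier2 in 7. The clusters share libraries, so these counts are no set of independent replicates. The 8 macrophage markers summed to 1.09 and 1.53 UMIs per 10000 in the AKI libraries of the class and to 0.659 and 0.323 in CKD, none of them at 0, and their part in the result was not tested.

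**Figure D3:**
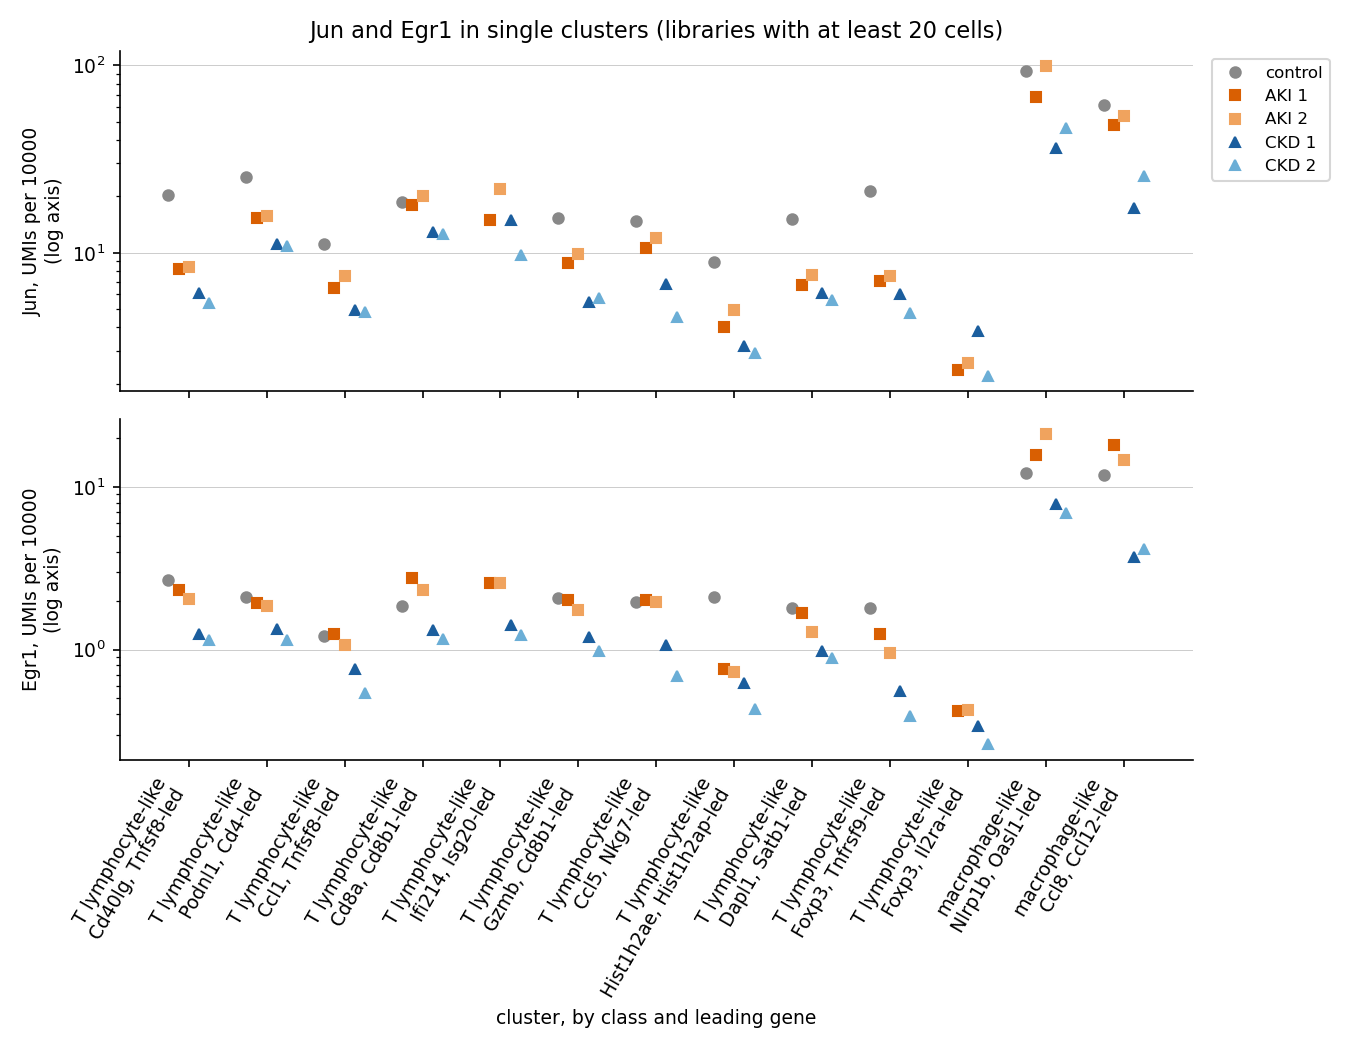
Jun (upper panel) and Egr1 (lower panel) in UMIs per 10000 on a log axis in the 11 T lymphocyte-like and 2 macrophage-like clusters, named by their leading genes, with 1 point per library of at least 20 cells. The AKI squares lie above the CKD triangles for Egr1 in every cluster, while Jun overlaps in the cluster led by Foxp3 and Il2ra.

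In several of the other classes the 2 CKD libraries parted. They did not in PT-like cells, where the median log2 ratios of CKD 1 and CKD 2 to the AKI mean were -0.56 and -0.69. In NK-like cells these medians were -0.072 and -0.082, and in urothelial-like cells both were negative, at -1.3 and -0.77. In endothelial-like (EC) cells Jun was at 91.5 and 95.5 UMIs per 10000 in AKI, 58.8 in CKD 1 and 111 in CKD 2, so that CKD 2 was the highest and CKD 1 the lowest of the 4. Fos was at 61.2, 59.4, 44.5 and 60.7 in AKI 1, AKI 2, CKD 1 and CKD 2. All 10 genes were lower in CKD 1 than in both AKI libraries in this class, and the share of all genes lower in CKD 1 alone was not counted. For 4 of the 10 both CKD libraries were lower, beside 23.8% of all genes. The EC-like cells of CKD 1 were spread differently over clusters: 53.4% were in the Fabp4-led cluster, against 28.7 to 31.0% in the other AKI and CKD libraries. Jun in CKD 1 was at 27.1 in that cluster and at 84.7 in the one led by Plvap and Kdr. In the Cldn5-led cluster Fos was at 67.8 and 72.1 in AKI and at 72.9 and 75.7 in CKD. The part of these cluster shares in the EC result was not tested. None of the 10 genes passed in EC-like cells (edgeR, adjusted p of 0.922 to 0.98). In edgeR 0 of 11484 genes were called in the class, and 492 had an unadjusted p under 0.05. DESeq2 called 7 genes and none of the 10.

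In cells of the distal nephron CKD 1 also lay lower than CKD 2, but CKD 2 was mostly under the AKI mean too. The median log2 ratios of CKD 1 and CKD 2 to that mean were -1.0 and -0.12 in TAL-like and -0.98 and -0.21 in IC-like cells. They were -1.2 and -0.33 in DCT-like and -0.31 and 0.024 in PC-like cells. In the thick ascending limb (TAL) Atf3 was at 22.0 and 18.2 UMIs per 10000 in AKI, 6.83 in CKD 1 and 15.7 in CKD 2. Mean depth there was 27200, 22000, 4910 and 16900 UMIs per cell in the same order, and the mitochondrial share 10.9, 10.5, 17.2 and 10.4%. In intercalated (IC) cells Jun was at 33.8 and 32.4 in AKI, 17.0 in CKD 1 and 31.1 in CKD 2. In principal (PC) cells it was at 18, 19.5, 15.6 and 17.5. In the distal convoluted tubule (DCT) Klf6 was at 17.4 and 20.6 in AKI, 6.11 in CKD 1 and 14.3 in CKD 2. Both CKD libraries were lower for 6 genes in TAL-like, 9 in IC-like and 9 in DCT-like cells, beside 23.7, 29.4 and 26.2% of all genes. The lower mean depth and higher mitochondrial share of CKD 1 moved with these values. The median depth of DCT-like cells was 1696, 1667, 2125 and 1996.5 UMIs in AKI 1, AKI 2, CKD 1 and CKD 2. Of the DCT-like cells of CKD 1, 37.2% were in the cluster led by Slc12a3, Abca13 and Gm42937, against 73.4 to 75.1% in the other AKI and CKD libraries. The part of these differences in the result was not tested.

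With CKD 2 left out, edgeR called 10 genes lower in IC-like, 9 in TAL-like, 8 in EC-like and 8 in DCT-like cells, where 7.41, 6.42, 3.84 and 3.44% of all genes were called lower. With CKD 1 left out it called 0 in each of these 4 classes. The 1 remaining CKD library is in both cases assumed to vary like the AKI pair.

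In proximal tubule (PT) cells, the site of AAI injury, the median log2 ratios of CKD 1 and CKD 2 to the AKI mean were -0.56 and -0.69. Atf3 was at 8.53 and 7.07 UMIs per 10000 in AKI and at 4.07 and 3.44 in CKD, a log2 change of -0.98 ± 0.204 (edgeR, adjusted p = 0.101). Klf6 was at 11.5 and 10.3 in AKI, 5.75 and 6.55 in CKD and 4.60 in the control. Of the 10 genes, 9 were lower in both CKD libraries than in both AKI libraries, beside 27.2% of all genes in the class, and 0 passed. At an unadjusted p under 0.05 there were 6 of the 10 lower, and 6.35% of all genes. Without CKD 1, 6 passed, without CKD 2, 4, and DESeq2 in place of edgeR called 4, where 1.63, 6.64 and 0.872% of all genes were called lower.

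Urothelial-like cells had a median change of -0.84 on the log2 scale (-0.3 with doublets kept), with both CKD libraries below both AKI libraries for 9 genes (29.3% of all genes in the class). Fosb was at 15.2 and 17.9 UMIs per 10000 in AKI and at 4.54 and 7.70 in CKD (log2 change -1.30 ± 0.290, edgeR adjusted p = 0.57). There were 35 to 199 such cells in a library, 0 of 9010 genes passed the test in edgeR, and 9 of the 10 genes and 719 of all had an unadjusted p under 0.05. DESeq2 called 1 of the 10.

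**Figure D4:**
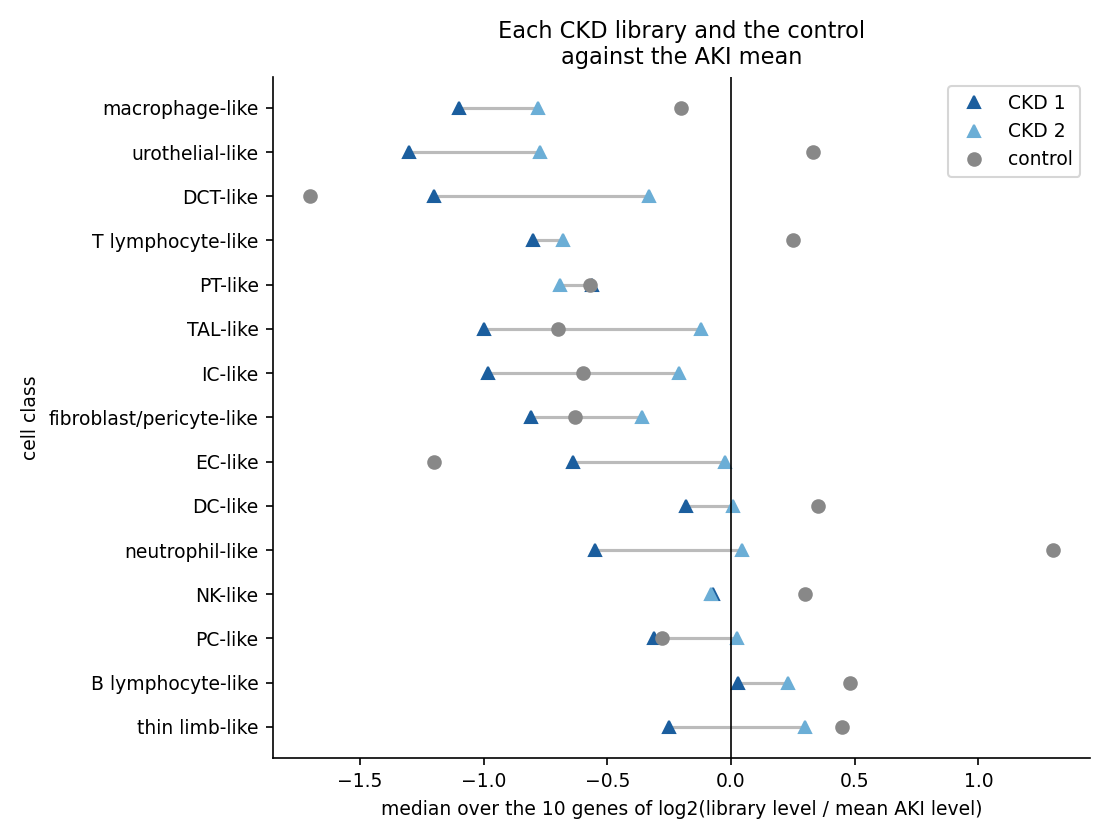
Median over the 10 genes of the log2 ratio of CKD 1, CKD 2 and the control to the mean AKI level (horizontal axis) in 15 cell classes (vertical axis). Both CKD points lie well left of 0 in macrophage-like (-1.1 and -0.78), urothelial-like (-1.3 and -0.77), T lymphocyte-like (-0.8 and -0.68) and PT-like cells (-0.56 and -0.69), and CKD 2 lies near 0 in EC-like (-0.025) and TAL-like cells (-0.12). In fibroblast/pericyte-like (-0.81 and -0.36), DCT-like (-1.2 and -0.33) and IC-like cells (-0.98 and -0.21) both points are also left of 0, CKD 2 less far.

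The remaining classes had median changes of -0.39 to 0.2 on the log2 scale. In NK-like cells Jun was at 12.2 and 13 UMIs per 10000 in AKI and at 13.1 and 14.2 in CKD, and Junb at 29.1, 29.2, 28.4 and 29.3. Both CKD libraries were below both AKI libraries for 4 genes there (Fosb, Egr1, Klf6 and Nr4a1), beside 15.1% of all genes. Egr1 had the lowest p of the 10 in these cells, at 2.14 and 1.93 in AKI and 1.20 and 1.19 in CKD (log2 change -0.80 ± 0.164, edgeR adjusted p = 0.197). In B lymphocyte-like cells both CKD libraries were above both AKI libraries for 4 genes (Jun, Jund, Egr1 and Ier2), an arrangement that 31.1% of all genes showed in the class. Jun was at 8.39 and 9.34 there in AKI and at 10.6 and 11.5 in CKD (log2 change 0.15 ± 0.191, edgeR adjusted p = 0.998). In thin limb-like cells, with 25 cells in CKD 2, the median change was 0.2 (-0.039 without AKI 2 and -0.12 without CKD 2), and Fos was at 45.4 and 36.3 in AKI and 49.8 and 49.9 in CKD (log2 change 0.38, edgeR adjusted p = 0.736). In fibroblast/pericyte-like cells all 10 fitted changes were negative and both CKD libraries were below both AKI libraries for 9 genes, beside 30.8% of all genes. The median change was -0.2 in DC-like, -0.17 in neutrophil-like and -0.39 in fibroblast/pericyte-like cells, and 0 of the 10 genes passed in them in edgeR or DESeq2, with 2, 0 and 0 at an unadjusted p under 0.05. In the same order 792 of 9997, 162 of 1407 and 568 of 7781 genes were at that p.

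The Fn1-led and Ctsk-led clusters were not part of the macrophage-like class. Lyz2, Trem2 and Cd14 were among the leading genes of the Fn1-led cluster. The authors of the data marked scar-associated macrophages by Acp5, Ctsk and Mmp9, which lead the Ctsk-led cluster. Of the clusters without a class name, the one led by Fn1, Il1a and Apoc2 had 4 genes called lower, Atf3, Egr1, Fosb and Ier2. There 5.38% of all genes were called lower. The median log2 change of the 10 genes was -0.53 in this cluster, -0.85 without CKD 2 and -0.28 without CKD 1. Atf3 fell from 19.2 and 20.6 UMIs per 10000 in AKI to 10.6 and 12.4 in CKD (log2 change -0.87, edgeR adjusted p = 0.00243). Junb, at 12.8 and 13.5 in AKI and 11.4 and 12.7 in CKD, did not pass (adjusted p = 0.321, edgeR). In the cluster led by Ctsk, Mmp9 and Acp5 9 of the 10 changes were negative, and both CKD libraries were below both AKI libraries for 7 genes, beside 27.5% of all genes. Atf3 was at 7.79 and 3.29 in AKI and 1.65 and 1.03 in CKD (log2 change -1.82 ± 0.399, edgeR adjusted p = 0.142), and Egr1 at 4.92 and 2.87 and at 1.12 and 1.05 (-1.63 ± 0.256, edgeR adjusted p = 0.0697). Fos was the gene with a positive change, at 16.1 and 14.5 in AKI and 18.9 and 19.8 in CKD (log2 change 0.52, edgeR adjusted p = 0.199). None of the 10 passed there in edgeR, with 4 at an unadjusted p under 0.05 and 23 of 10433 genes called lower, while DESeq2 called 3 lower and 1 higher. Of all genes in the cluster, 1590 had an unadjusted p under 0.05 in edgeR, and DESeq2 called 1.73% lower. The mean depth of that cluster was 2230 and 3490 UMIs per cell in AKI and 8460 and 31800 in CKD. The Il17a-led cluster had 0 calls, with 0 of 3147 genes called and 127 at an unadjusted p under 0.05, and DESeq2 called none of the 10.

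Whether the change differed between classes was tested in 1 model over the 15 classes. For 7 of the 10 genes it did (F-test over classes in edgeR): Egr1 (adjusted p = 0.0166), Jun (0.0177), Junb (0.019), Fosb (0.0279), Ier2 (0.03), Jund (0.0304) and Klf6 (0.0461). Of all 14845 genes, 0.626% passed this test. Atf3, Fos and Nr4a1 did not pass, at an adjusted p of 0.0917, 0.221 and 0.353. The test counts the classes of a library as separate measurements beside a term for the library.

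Set against the mean change of the other 14 classes, macrophage-like cells were lower for 8 of the 10 genes, where 1.38% of all genes were called lower. The difference was -1.76 ± 0.271 for Egr1 (log2, edgeR adjusted p = 0.00024), -1.28 ± 0.214 for Jun (0.000927) and -1.09 ± 0.204 for Ier2 (0.00244). It was -0.92 for Junb, -0.91 for Fos, -0.86 for Fosb, -0.84 for Jund and -0.79 for Klf6. Atf3 (-0.72, adjusted p = 0.134 in edgeR) and Nr4a1 (-0.58, adjusted p = 0.492) missed the threshold. Over the other 14 classes edgeR called 0 of 140 pairs, with 14 lower and 22 higher at an unadjusted p under 0.05. The share of all genes at that p was not counted. In T lymphocyte-like cells the lowest adjusted p of the 10 genes was 0.397 (edgeR), and DESeq2 was not run on this contrast. All genes called lower made up 0.0135% in B lymphocyte-like, 0.0269% in NK-like, 0.0539% in T lymphocyte-like, 0.0337% in neutrophil-like, 0.0472% in urothelial-like and 0.0% in each of the remaining classes. Without AKI 1 or without AKI 2 neither this test nor the F-test called any of the 10 genes, and at a coarser clustering the F-test called 0 and the macrophage test 3.

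Averaged over the 15 classes with equal weight, the mean log2 level of each gene was lower in CKD than in AKI. For Fosb the class mean of log2(UMIs per 10000 + 0.1) was 3.60 and 3.47 in AKI and 2.46 and 3.19 in CKD, for Egr1 2.83, 2.81, 1.90 and 2.42, and for Jund 4.53, 4.52, 4.06 and 4.32. Over all 10 genes the difference of CKD from AKI was -0.463 (pooled SD 0.22, 2 libraries each), -0.244 without CKD 1 and -0.683 without CKD 2.

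The levels themselves differed more between classes than between groups. Over the AKI and CKD libraries Jun had its highest median in EC-like cells (93.5 UMIs per 10000), followed by fibroblast/pericyte-like (52.8) and macrophage-like cells (38.5), and its lowest in neutrophil-like cells (4.53). Fos was highest in fibroblast/pericyte-like (60.1) and EC-like cells and lowest in T lymphocyte-like cells (6.14). Neighbours in these orders were mostly not separated: the ranges of the 4 libraries overlapped in 14 of 14 neighbouring pairs for Fos, Fosb, Junb, Klf6 and Ier2, in 13 for Atf3 and in 12 for Jun, Jund, Egr1 and Nr4a1. For Jun the separated steps were PT over NK and NK over B lymphocyte.

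Each gene had its own order. Jund was highest in B lymphocyte-like cells (median 47.0 UMIs per 10000), with EC-like cells next (46.7), and lowest in PT-like cells (9.26). Klf6 was highest in macrophage-like cells (20.2) and lowest in fibroblast/pericyte-like cells (5.84). Nr4a1 was highest in fibroblast/pericyte-like (6.65), neutrophil-like (5.81) and B lymphocyte-like cells (5.40) and lowest in PT-like cells (0.36). Atf3 and Fosb were highest in thin limb-like cells (37.4 and 28.0). Egr1, Junb and Ier2 were highest in EC-like cells (26.6, 42.5 and 10.9).

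The control, a single library, has no replicate check. It lay below both AKI libraries in 76 of the 150 pairs of gene and class and above both in 65, beside 39.3 and 41.5% of all pairs with a mean of at least 10 UMIs per library. All 10 genes were lower in the control than in both AKI libraries in DCT-like, EC-like, IC-like and PT-like cells, as were 41.8, 33.3, 47.9 and 40.2% of all genes over that minimum. In EC-like cells Atf3 was at 9.58 UMIs per 10000 in the control and at 34.9 and 32.3 in AKI, and in DCT-like cells at 3.06 against 21.6 and 22.3. In lymphocytes the control was high: Fos in B lymphocyte-like cells was at 16.4 in the control and at 8.58 and 7.37 in AKI, and in NK-like cells at 17.7 against 8.96 and 9.13. Fos in neutrophil-like cells was at 54.8 in the control against 7.29 and 10.7, from 16 control cells. The mitochondrial share of the control was 21.9% in DCT-like and 9.37% in NK-like cells, against 11.9 and 12.4% and 4.22 and 3.99% in AKI, and its part in these values was not tested.

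Across 88 sums of class and library with at least 20 cells, Fosb followed the mean of the other 9 genes closest (Pearson r = 0.942 of log2 levels), then Ier2 (0.887), and Nr4a1 least (0.352). Outside all lists the genes most alike to the mean of the 10 were Brd2, a reader of acetylated histones (0.736), Ddx3x, an RNA helicase (0.694), Morf4l1 (0.617), Rab5a, an endosomal GTPase (0.609), and Myl12a, a myosin light chain (0.593). The sums of a library share its depth and preparation, so these values are descriptive.

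Genes that act around AP-1 changed in part. Of all 11002 genes tested in macrophage-like cells 299 fell and 294 rose, and of 13742 in T lymphocyte-like cells 357 fell and 1064 rose. These counts stand beside those of every list below. Of 17 other AP-1 and bZIP subunits tested in macrophage-like cells, 2 fell (Batf3 and Maf), and in T lymphocyte-like cells 5 of 17 fell, Maff among them. Their medians were -0.37 and -0.22, beside 0.010 and -0.023 over all genes. Maff, a small Maf protein, was at 0.311 and 0.330 UMIs per 10000 in AKI and 0.184 and 0.162 in CKD in T lymphocyte-like cells (log2 change -0.89, edgeR adjusted p = 0.0148). Jdp2, a repressor that dimerises with Jun, went the other way in the Fn1-led cluster, from 0.613 and 0.538 to 1.58 and 1.16 (log2 change 1.18, edgeR adjusted p = 0.00444). Jdp2 was also called higher in DCT-like cells and was among the leading genes of the Ctsk-led cluster. Free RNA was not removed from the counts, and its part in the rise of Jdp2 was not tested.

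Of 21 other early response transcription factors, 4 fell and 1 rose in macrophage-like cells, and 7 fell in T lymphocyte-like cells. Klf4, a Krüppel-like factor, fell in both, from 9.91 and 8.94 UMIs per 10000 to 4.42 and 5.73 in macrophage-like cells (log2 change -1.08, edgeR adjusted p = 0.0261). Nfkbiz, an atypical inhibitor of NF-kappaB, fell in macrophage-like cells from 11.1 and 9.85 to 4.81 and 5.50 (-1.21, edgeR adjusted p = 0.0136) but stood at 1.54, 1.75, 1.37 and 1.61 in T lymphocyte-like cells. In the Fn1-led cluster 2 of these 21 fell and 7 rose, beside 501 and 418 of all 9313 genes. Myc rose there from 0.218 and 0.166 to 0.328 and 0.366.

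Among 33 feedback and other early response genes, 5 fell and 2 rose in macrophage-like cells and 8 fell in T lymphocyte-like cells. Rhob, a small GTPase induced by stress, fell in both, from 6.71 and 7.26 to 2.90 and 4.09 UMIs per 10000 in macrophage-like cells (log2 change -1.18, edgeR adjusted p = 0.0266). The phosphatase genes Dusp4 and Dusp5, which switch off MAP kinases, were the 2 that rose. Of 27 genes of MAP kinase and serum response factor signalling tested, 1 fell in macrophage-like cells (Mapkapk2, -0.85, edgeR adjusted p = 0.0344) and 0 passed in T lymphocyte-like cells.

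Heat shock and chaperone genes, another group known to respond to tissue digestion, fell in part. Of 19, 5 fell in macrophage-like cells and 6 in T lymphocyte-like cells, and 0 rose. Hspa1b, an inducible Hsp70, was at 16.4 and 15.3 UMIs per 10000 in AKI and 7.88 and 7.74 in CKD in macrophage-like cells (log2 change -1.21, edgeR adjusted p = 0.00831), with the control at 30.3. The part of digestion in these values was not tested.

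Genes often given as AP-1 targets did not move as 1 group. Of 15 tested in macrophage-like cells 1 fell (Hmox1) and 1 rose (Ccnd1), and of 16 in T lymphocyte-like cells 2 fell (Ccl2 and Cd69) and 1 rose (Mmp9). Cd69, an activation marker of lymphocytes, was at 5.07 and 5.54 UMIs per 10000 in AKI and 3.61 and 3.83 in CKD in T lymphocyte-like cells (log2 change -0.51, edgeR adjusted p = 0.0357). Mmp9, a matrix protease that leads the Ctsk-led cluster together with Ctsk, rose in DCT-like, PC-like, PT-like and T lymphocyte-like cells and in the Fn1-led cluster. In T lymphocyte-like cells it was at 0.0215 and 0.0306 in AKI, 0.164 and 0.132 in CKD and 0.164 in the control (log2 change 2.50, edgeR adjusted p = 0.0145). The Ctsk-led cluster, where Mmp9 was at 3.30, 35.4, 29.9 and 37.8 in AKI 1, AKI 2, CKD 1 and CKD 2, made up 0.706 and 0.827% of the kept cells in AKI and 5.68 and 3.21% in CKD. Free RNA was not removed from the counts, and its part in the rise of Mmp9 was not tested.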

How the data were processed

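Single kidney cells were sequenced on the 10x platform from 1 control, 2 AKI and 2 CKD libraries. The values deposited by the authors are raw UMI counts of each gene in each barcode. The submitters' notes name Cell Ranger 7.2.0, STAR and GRCm39, while the AKI and CKD matrices carry version 5.0.0 and the control's gene list mm10, so genes were matched by identifier. Groups came from the sample labels.

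Cells with at least 200 genes and at most 30% mitochondrial UMIs were kept. A neighbour score of simulated doublets was used to remove the highest cells at an expected 0.8% per 1000 cells. Free RNA was not removed. After scaling by depth, 40 principal components were taken from 3000 variable genes, without the 10 genes, the lists around them and mitochondrial genes, and were aligned with an own version of Harmony, and a graph of 15 neighbours was clustered (Leiden, resolution 1.5; scanpy 1.11.5, igraph 0.11.9). Clusters were named from at least 3 detected markers; those of far lower depth than their libraries stayed unnamed, a limit set after the clusters were seen.

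UMIs were summed per class and library (at least 20 cells in each AKI and CKD library) and CKD was compared with AKI in edgeR 4.0.16 (TMM, filterByExpr, quasi-likelihood test, Benjamini-Hochberg adjustment; R 4.3.3), with DESeq2 1.42.0 as an alternative. All 10 genes passed the filter in every class. The difference between classes was tested in 1 edgeR model with terms for library, class and change by class. On simulated data a log2 change of 2 was recovered for 98% of 100 changed genes in macrophage-like and 99% in T lymphocyte-like cells, and a log2 change of 1 for 32 and 51%. For genes changed in T lymphocyte-like cells only, the F-test over classes recovered 94% at a log2 change of 2 and 8% at 1. The test of that class against the mean of the others recovered 90 and 35%. Counting intervals (Poisson for levels, Clopper-Pearson for shares) are exact at the 95% level and cover counting error only. The pseudocount was 0.1 UMIs per 10000.

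The 10 genes, the 6 further lists and the tests were chosen with earlier results of these data known, and the letters searched in promoters after the sequences had been read. The text names the 10 genes, from each further list the 3 genes passing in most classes in 1 direction, and the 5 genes most alike to the 10; other genes of a list were named after their values had been seen. Some genes of these lists are not reported here. The shares of all genes in single clusters and against the control were added after the data were seen. Alternatives were other scaling, filters, clustering, DESeq2, a replicate block and leaving out each library.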

Additional observations from a re-analysis of the deposited data

Results flagged for a closer look

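The first 8 values concern the change in macrophage-like cells, which was larger than the mean change of the other classes in the test of that difference: Egr1 (-1.76 on the log2 scale), Jun (-1.28), Ier2 (-1.09), Junb (-0.92), Fos (-0.91), Fosb (-0.86), Jund (-0.84) and Klf6 (-0.79). None of the 8 passed this test when AKI 1 or AKI 2 was left out.

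Cells of low depth that entered no comparison also held UMIs of the genes. In the low-depth cluster led by Ttn, Gm26917 and Ccdc88c both AKI libraries lay above the control for 8 of the 10 genes, and in the low-depth cluster led by Wfdc15b, Snhg9 and Ppp1r1a for 10 of the 10. Of all genes with a mean of at least 10 UMIs per library, 63.1 and 52.2% were arranged in this way. In both clusters both CKD libraries lay below both AKI libraries for all 10 genes, beside 20.3 and 38.7% of all genes. Egr1 was at 9.07 and 9.73 UMIs per 10000 in AKI, 2.04 and 2.62 in CKD and 3.12 in the control in the Wfdc15b-led cluster, and at 3.75 and 4.27, 2.06 and 2.16, and 4.93 in the Ttn-led cluster. These values were not tested.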

How the results depend on the processing

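The share of all genes called lower changed with the setting. In macrophage-like cells it was 2.72% in the main fit, 5.43% with no filter on low counts and 3.74% with DESeq2. In T lymphocyte-like cells it was 2.6, 2.61 and 4.13% in the same order, and in PT-like cells 0.155, 1.93 and 0.872%. Each value below counts the 10 genes called lower, unless it says otherwise. The 16 calls over the 15 classes became 30 with no filter on low counts, 25 with DESeq2, and 2 to 67 when a library was left out. In macrophage-like cells the 9 calls became 2 to 10 when a library was left out and stayed at 9 or 10 under the other alternatives. In T lymphocyte-like cells the 7 calls became 0 to 10 when a library was left out and 0 without the clusters led by cell cycle genes. In the other 13 classes the 0 calls became 11 with no filter, 5 with DESeq2 and 0 to 47 when a library was left out. The test of a difference between classes went from 7 genes to 4 with DESeq2 size factors, 0 at a Leiden resolution of 1.0 and 0 to 10 when a library was left out. The count for macrophage-like cells against the other classes went from 8 to 5, 3 and 0 to 9 under the same settings. The mean over classes, -0.463, ranged from -0.683 to -0.244 when a library was left out, and the difference in shares, -18.7 percentage points, was -14.0 without thinning. The causes were not tested. The median change over the 10 genes changed sign in EC-like cells (0.028 without CKD 1), thin limb-like cells (-0.039 without AKI 2, -0.12 without CKD 2), PC-like cells (0.019 without CKD 1, 0.0091 with doublets kept), B lymphocyte-like cells (0.018 with doublets kept, 0.053 with no filter, 0.1 without AKI 2, 0.11 without CKD 1) and the Il17a-led cluster (0.0071 with no filter, 0.067 without AKI 2, 0.16 without CKD 1).

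The labels number the libraries of both groups, and with the replicate number as a block 21 pairs were called, 9 in macrophage-like, 9 in T lymphocyte-like and 3 in the other classes. The numbers were not taken to pair the libraries, since deviations of same-numbered libraries correlated at -0.116 to 0.296 over the classes.

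With 2 libraries a group, 32% of macrophage genes simulated with a log2 change of 1 were recovered, so a missed threshold does not show that levels were alike.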
